A study of Mus musculus with 20 samples.

Results

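Transforming growth factor beta (TGF-beta) signalling was followed through 9 genes: the ligand genes Tgfb1, Tgfb2, Tgfb3 and Inhba, the latency gene Ltbp1, the receptor genes Tgfbr1 and Tgfbr2, and Smad7 and Skil, which restrain the pathway and are themselves among its targets. They were taken by gene symbol from the count tables of bone marrow and kidney, which list 55486 genes each, and all 9 had a row in both tables. In bone marrow of oxaliplatin-treated mice 5 of the 9 genes were higher than with vehicle and 0 were lower: Tgfb1 (1.60-fold), Tgfb2 (3.84-fold), Tgfb3 (2.46-fold), Ltbp1 (1.63-fold) and Tgfbr2 (1.58-fold). Over all genes tested in marrow 11.6% were higher by the same thresholds and 23.3% changed in either direction. In kidney 2 of the 8 genes with enough counts to be tested were higher, Tgfb2 (2.34-fold) and Tgfb3 (1.60-fold), and 0 were lower, against 7.68% of all genes tested that were higher there and 11.5% that changed in either direction. The responses of Tgfb1 and Tgfbr2 differed between the tissues when the difference itself was tested. Smad7, Skil and Tgfbr1 passed the test in neither tissue.

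TGF-beta proteins are secreted in a latent form, wrapped in their own propeptide and tethered to a latent TGF-beta binding protein such as LTBP1, and must be released before they can act. The freed ligand joins the type II receptor TGFBR2 to the type I receptor TGFBR1, which phosphorylates SMAD2 and SMAD3, and these enter the nucleus with SMAD4. SMAD7 competes for the activated type I receptor, and SKIL (SnoN) represses SMAD-dependent transcription, so that both form negative feedback loops. Activin A, a dimer of the Inhba product, uses activin receptors and the same SMADs. TGF-beta1 is abundant in platelets and their precursors, the megakaryocytes, and holds hematopoietic stem cells in quiescence. In kidney the pathway is known for its part in the deposition of extracellular matrix by fibroblasts and pericytes.

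The samples were 20 libraries, 5 for each tissue and treatment, labelled as biological replicates. The mice were C57BL/6, 10 weeks old at the start, and received either oxaliplatin, a platinum drug that crosslinks DNA, at 10 mg/kg by the intraperitoneal route or 5% dextrose, the vehicle, for 8 weeks. According to the methods, oxaliplatin was given in 5% dextrose, the animals were of both sexes, and 6 days passed between the last dose and the spinning of marrow from the long bones of the hind leg. No mouse carried an engineered allele according to the labels or the methods. Whether a kidney and a marrow library of the same number came from 1 mouse is not given in the sources used here.

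Total counts ranged from 30660153 to 41140527 in bone marrow and from 24393007 to 30925430 in kidney. Every library carried reads of the Y-linked gene Ddx3y, at least 23.0 CPM (counts scaled to a common library size), and at most 2.88 CPM of Xist. By these reads all 20 libraries looked male, whereas the methods name both sexes. The tissues carried their labelled markers: the summed CPM of 5 proximal tubule genes was at least 12000 in every kidney and at most 5.51 in any marrow, and that of 5 neutrophil genes was at least 5594 in every marrow and at most 1.16 in any kidney. The cell type markers of the marrow differed between the groups. The summed CPM of 5 erythroid genes ranged from 22440 to 39830 with vehicle and from 2669 to 7244 with oxaliplatin, that of 5 B cell genes from 232.9 to 415.8 and from 55.3 to 70.6, that of 6 adipocyte genes from 76.2 to 143 and from 492 to 2460, that of 5 macrophage genes from 465 to 722 and from 694 to 1751, and that of 5 megakaryocyte and platelet genes from 1019 to 1579 and from 1889 to 2899. That of 5 skeletal muscle genes overlapped, from 9.5 to 93.0 and from 39.5 to 701, with 4 of 5 called higher. The sums of 5 T cell and 5 osteoblast genes were lower without overlap, with 1 of 5 called lower in each. The sums of 5 fibroblast and 4 smooth muscle genes were higher without overlap, with 1 and 2 called higher. In bulk tissue, more cells of a type and more RNA per cell cannot be told apart. CPM are relative to library sizes scaled by the trimmed mean of M values (TMM), within each tissue. Scaled to library size alone, the median log2 fold change of all genes moved up by 0.146 in bone marrow and 0.133 in kidney, and the called genes went from 2589 higher and 2632 lower to 3431 and 1984 in bone marrow, and from 1481 and 735 to 2245 and 470 in kidney.

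Promoters from RefSeq (GRCm38.p6) were found for 6 of the 9 genes: Tgfb1, Tgfb2, Ltbp1, Inhba, Tgfbr1 and Tgfbr2. The 250 bases before the start of transcription are shown for 3 genes that were higher together in the marrow of oxaliplatin-treated mice, 5′ to 3′ on the strand of the gene. Capitals mark GC boxes (GGGCGG on either strand) in Tgfb1, an E-box (CACGTG) and a TATA box (TATAAA) in Tgfb2, and the cyclic AMP response element TGACGTCA in Ltbp1. The windows are chr7:25686752-25687001 on the plus strand for Tgfb1, chr1:186705990-186706239 on the minus strand for Tgfb2, and chr17:75005279-75005528 on the plus strand for Ltbp1, whose RefSeq start lies slightly before the GENCODE one.
Tgfb1: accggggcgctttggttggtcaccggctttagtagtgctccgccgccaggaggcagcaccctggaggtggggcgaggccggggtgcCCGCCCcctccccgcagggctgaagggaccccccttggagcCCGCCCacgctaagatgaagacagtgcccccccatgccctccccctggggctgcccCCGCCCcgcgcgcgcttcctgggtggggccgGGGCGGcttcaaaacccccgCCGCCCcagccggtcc
Tgfb2: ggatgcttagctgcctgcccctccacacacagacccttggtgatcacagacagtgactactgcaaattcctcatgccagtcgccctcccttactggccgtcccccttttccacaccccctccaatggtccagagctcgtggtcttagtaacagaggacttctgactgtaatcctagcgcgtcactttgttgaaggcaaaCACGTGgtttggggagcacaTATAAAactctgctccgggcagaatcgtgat
Ltbp1: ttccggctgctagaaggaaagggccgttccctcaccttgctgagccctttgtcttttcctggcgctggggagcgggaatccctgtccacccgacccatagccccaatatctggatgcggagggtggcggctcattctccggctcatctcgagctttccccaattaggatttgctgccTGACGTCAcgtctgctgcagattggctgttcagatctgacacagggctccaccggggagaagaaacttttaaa

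The Tgfb1 window held 5 GC boxes, at bases -164 to -159, -123 to -118, -67 to -62, -36 to -31 and -16 to -11 from the start, and no TATAAA. The Tgfb2 window held CGTCA at -72 to -68, CACGTG at -51 to -46 and TATAAA at -31 to -26, and no GC box. The Ltbp1 window held TGACGTCA at -73 to -66, which contains CGTCA on both strands. The 6 genes had 8 windows in all, and a window of Ltbp1 was shown only if it held TGACGTCA. Its presence there was set by that choice and cannot be read against the share of all windows. Searched on both strands of the 250 bases before 32851 RefSeq starts, GGGCGG was present in 32.7%, TATAAA in 12.4%, CACGTG in 6.02%, CGTCA in 17.8% and TGACGTCA in 1.55%. The activator protein 1 motif TGACTCA, present in 4.46% of windows, and the palindromic SMAD element GTCTAGAC, present in 0.167%, were in none of the windows of the 6 genes. Whether promoters of Tgfb3, Smad7 and Skil hold either motif was not looked at. These matches describe letters in 1 window per start and are not binding sites.

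**Figure D1:**
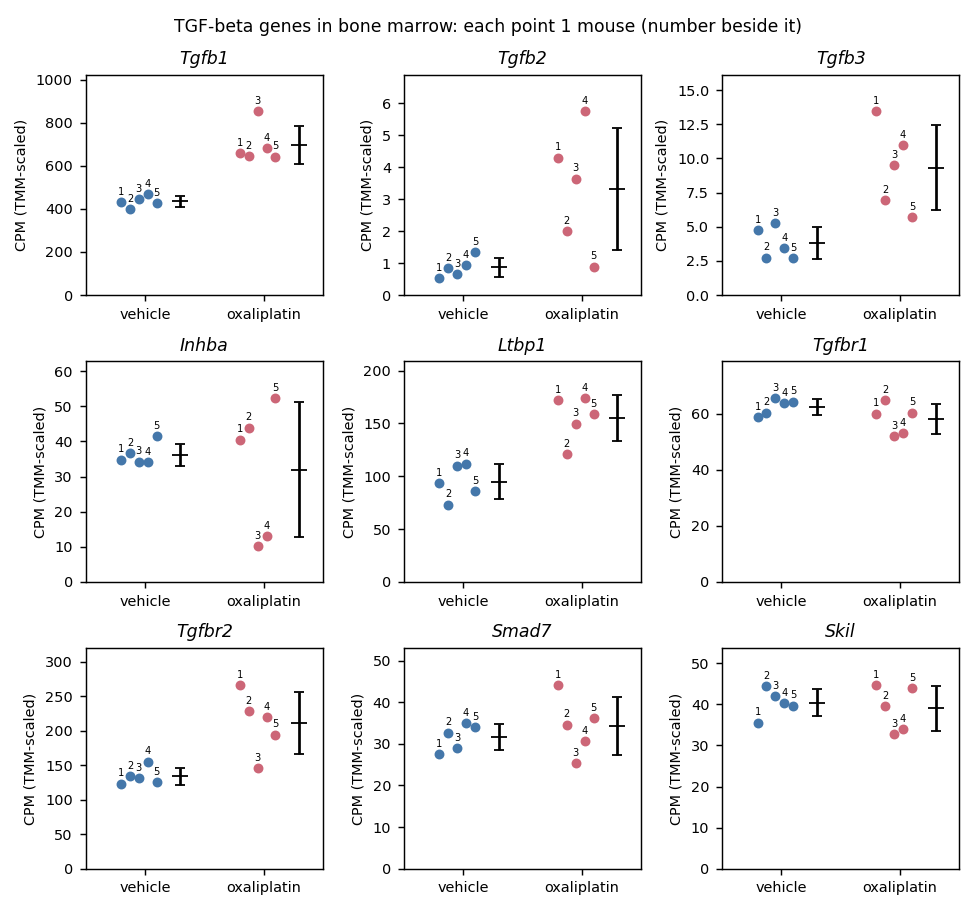
Expression of the 9 genes in bone marrow. Each panel gives TMM-scaled CPM on a linear axis from 0, with 1 point per mouse (its number beside it) and the mean ± SD of the 5 mice of each group in black. The oxaliplatin-treated mice lie above every vehicle-treated mouse for Tgfb1, Tgfb3 and Ltbp1, mouse 5 with oxaliplatin lies among the vehicle group for Tgfb2, and mice 3 and 4 with oxaliplatin stand far below the others for Inhba.

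To compare genes and tissues, levels were taken per kilobase of merged exon after 1 TMM scaling over all 20 libraries. In bone marrow with vehicle, Tgfb1 was the highest of the 9 genes at 73.6 ± 3.69 CPM per kb (SD, n = 5), followed by Tgfbr2 at 13.9 ± 1.10. Tgfbr1 (8.17 ± 0.373), Ltbp1 (7.58 ± 1.24), Smad7 (5.97 ± 0.586) and Inhba (4.85 ± 0.483) came next, and each overlapped its neighbour in that order. Below them lay Skil at 3.56 ± 0.278, Tgfb3 at 0.955 ± 0.294 and Tgfb2 at 0.127 ± 0.0462, with no overlap. The order in vehicle kidney was different, with Smad7 (18.0 ± 1.27) and Tgfbr2 (15.4 ± 1.45) overlapping at the top, Tgfbr1 at 8.38 ± 0.834, Skil (4.43 ± 0.503) and Tgfb1 (4.06 ± 0.194) overlapping, and Ltbp1 at 2.21 ± 0.156. The lowest kidney levels were those of Tgfb3 (0.424 ± 0.116) and Tgfb2 (0.238 ± 0.0846), which overlapped, and of Inhba (0.0147 ± 0.0177).

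Tgfb1 was thus 18.1-fold higher per kb in vehicle marrow than in vehicle kidney, Ltbp1 3.44-fold and Tgfb3 2.25-fold, whereas Smad7 was 3.02-fold higher in kidney. For these 4 genes the 5 libraries of the tissues did not overlap, while the ranges of both receptors, Skil and Tgfb2 did. The share of all genes whose libraries separate the 2 tissues was not computed. These separations therefore describe levels and cannot be read as a trait of the TGF-beta genes. Inhba did not overlap either and had the largest ratio, 330-fold higher in marrow, which is poorly set because its kidney reads lay near the floor. Of the summed per kb level of the 3 TGF-beta ligands in marrow, Tgfb1 made 98.6% ± 0.317 with vehicle and 97.6% ± 0.865 with oxaliplatin. In kidney its share was 86.0% ± 2.88 with vehicle and 78.6% ± 4.24 with oxaliplatin. The shares of Tgfb2 in kidney were 5.05% ± 1.84 and 9.66% ± 4.06, and those of Tgfb3 were 8.98% ± 2.48 and 11.8% ± 1.61. Tgfb1 thus had the largest share of the 3 in all groups.

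Groups were compared within each tissue with edgeR's quasi-likelihood test over all genes with enough counts, 22363 in bone marrow and 19293 in kidney, and calls required both a Benjamini-Hochberg adjusted p below 0.05 and a difference larger than 1.5-fold. In bone marrow 23.3% of all tested genes were called, 11.6% higher, beside 5 of the 9 TGF-beta genes, all higher. In kidney 11.5% were called, 7.68% higher and 3.81% lower, beside 2 of the 8 tested genes, both higher. By the adjusted p alone, 33.1% of all genes passed in bone marrow, beside the same 5 genes, and 29.4% in kidney, beside 3. Groups without overlap, in either direction, made 24.9% of all genes tested in bone marrow and 20.7% in kidney, beside 3 of 9 and 2 of 8 of these genes. Log2 fold changes are given with their standard errors (SE) as oxaliplatin over vehicle.

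Tgfb1 (ENSMUSG00000002603, chr7:25687002-25705077, plus strand, GRCm38) encodes the ligand that dominates in blood and bone. In bone marrow the vehicle-treated mice 1 to 5 had 433, 400.0, 445, 469.9 and 426 CPM. The oxaliplatin-treated mice had 659, 647, 854, 684 and 643 CPM, so that the lowest treated mouse stood well above the highest control and mouse 3 stood apart at the top. The log2 fold change was 0.68 (SE 0.11, adjusted p = 2.66e-04). The megakaryocyte and platelet markers moved with it: their summed CPM was 1279, 1019, 1356, 1579 and 1167 with vehicle and 2354, 1889, 2899, 2142 and 2256 with oxaliplatin. All 5 markers of that list were called higher, none was at 0, and mouse 3 was again the highest. Mouse 4, next highest for Tgfb1, was next to lowest of the treated mice for these markers. Mouse 3 was also the highest treated marrow for the skeletal muscle (700.6 CPM) and podocyte (108 CPM) marker sums. The part of these lists in the Tgfb1 result was not tested. In kidney Tgfb1 was 17.2, 18.2, 17.5, 17.0 and 19.2 CPM with vehicle and 21.3, 20.2, 22.5, 18.5 and 17.5 CPM with oxaliplatin. These groups overlapped, since mice 4 and 5 with oxaliplatin lay within the vehicle range, and the log2 fold change of 0.17 (SE 0.09, adjusted p = 0.160) did not pass the test.

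Tgfb2 (ENSMUSG00000039239, chr1:186622792-186705989, minus strand), the gene whose promoter above carries the TATA box, encodes a ligand best known from mesenchymal and epithelial cells. Its marrow level was low with vehicle, 0.538, 0.844, 0.662, 0.941 and 1.33 CPM, from 17 to 41 counts. With oxaliplatin it was 4.29, 2.01, 3.64, 5.74 and 0.890 CPM, so that 4 mice lay above all controls and mouse 5 lay among them. The log2 fold change was 1.94 (SE 0.44, adjusted p = 0.00400). The summed CPM of the 6 adipocyte markers was 2284, 1046, 2336, 2460 and 492 in oxaliplatin-treated mice 1 to 5, lowest in mouse 5, next lowest in mouse 2 and highest in mouse 4, the places that these mice also took for Tgfb2. The summed CPM of 5 osteoblast genes put these mice in the same order as the adipocyte sum (56.46, 30.62, 68.75, 73.51 and 18.63). That osteoblast sum was lower than with vehicle (80.4 to 144 CPM), with 1 of the 5 genes called lower, and its part was not tested. All 6 adipocyte markers were called higher in marrow, none was at 0 in every library, although Lep had 0 to 5 counts with vehicle, and their part in the Tgfb2 result was not tested. In kidney Tgfb2 was 1.57, 0.876, 1.73, 1.01 and 0.810 CPM with vehicle, from 20 to 42 counts, and 2.15, 2.19, 2.16, 4.84 and 2.67 CPM with oxaliplatin. The groups did not overlap, and mouse 4 had the highest value (log2 fold change 1.23, SE 0.28, adjusted p = 0.00360). Groups did not overlap with oxaliplatin higher for 9.69% of all genes tested in kidney and for 11.4% in marrow. An antisense gene, Gm29491, shares 124 exon bases with Tgfb2 on the other strand, and since strand use in the counting is not stated, reads of the pair cannot be told apart there.

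Tgfb3 (ENSMUSG00000021253, chr12:86056745-86079041, minus strand) encodes the third ligand. Marrow values were 4.75, 2.74, 5.26, 3.45 and 2.73 CPM with vehicle and 13.5, 6.93, 9.51, 10.9 and 5.69 CPM with oxaliplatin. Every treated mouse exceeded every control, by the narrowest margin in mouse 5, and the log2 fold change was 1.30 (SE 0.27, adjusted p = 0.00207). Kidney values were 1.42, 1.52, 0.907, 1.53 and 0.851 CPM with vehicle, from 21 to 40 counts, and 1.90, 1.72, 2.30, 1.86 and 2.22 CPM with oxaliplatin. The kidney groups did not overlap, but the gap between them was small, and the log2 fold change of 0.68 (SE 0.22, adjusted p = 0.0308) was called at the edge of the threshold. That call was lost when vehicle mouse 3, vehicle mouse 5, oxaliplatin mouse 3 or oxaliplatin mouse 5 was left out (adjusted p from 0.0639 to 0.0809), and with all genes of at least 1 count in the fit (adjusted p = 0.0578). The genes Gm37804 and Gm48008 share 163 and 257 exon bases with Tgfb3 on the other strand.

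Inhba (ENSMUSG00000041324, chr13:16011851-16031621, plus strand) encodes the subunit of activin A. In marrow it was 34.8, 36.6, 34.3, 34.0 and 41.5 CPM with vehicle and 40.5, 43.9, 10.1, 13.0 and 52.3 CPM with oxaliplatin. The treated mice split, with mice 1, 2 and 5 at or near the top of the vehicle range or above it and mice 3 and 4 far below it, and the log2 fold change of -0.18 (SE 0.39, adjusted p = 0.768) turned positive when mouse 3 or mouse 4 was left out (0.05 and 0.02). The same 2 mice had the lowest neutrophil marker sums of the treated group, 5594 and 6055 CPM against 10350, 9412 and 11890 in mice 1, 2 and 5, and the lowest macrophage sums, 694 and 1071 against 1751, 1613 and 1253. With vehicle the neutrophil sum ranged from 9140 to 11240 CPM and the macrophage sum from 465 to 722 CPM. Mice 3 and 4 thus lay below the vehicle range for neutrophil markers, but within it and above it, respectively, for macrophage markers. The part of either list in the split was not tested. In kidney Inhba was too low to be tested within the tissue, with counts of 0, 0, 2, 6 and 2 with vehicle and 9, 3, 4, 36 and 18 with oxaliplatin. Mice 4 and 5 carried most of the kidney reads. The vehicle kidneys lay at or close to the floor of 3 counts.

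Ltbp1 (ENSMUSG00000001870, chr17:75005568-75392512, plus strand) encodes the protein that anchors latent TGF-beta in the matrix. Marrow values were 93.5, 73.2, 110.2, 112 and 86.1 CPM with vehicle and 172, 121, 149.8, 174 and 159 CPM with oxaliplatin. The lowest treated mouse, mouse 2, lay just above the highest control, and the log2 fold change was 0.71 (SE 0.13, adjusted p = 0.00116). In kidney it was 20.8, 22.3, 20.1, 20.9 and 18.4 CPM with vehicle and 23.9, 28.1, 22.0, 36.8 and 37.0 CPM with oxaliplatin. Mice 4 and 5 were again the high ones and mouse 3 overlapped the controls. The kidney log2 fold change of 0.53 (SE 0.13, adjusted p = 0.00831) passed the p threshold but stayed under 1.5-fold, which it exceeded when oxaliplatin mouse 1 or mouse 3 was left out (0.60 and 0.62) or with scaling by library size alone (0.67).

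**Figure D2:**
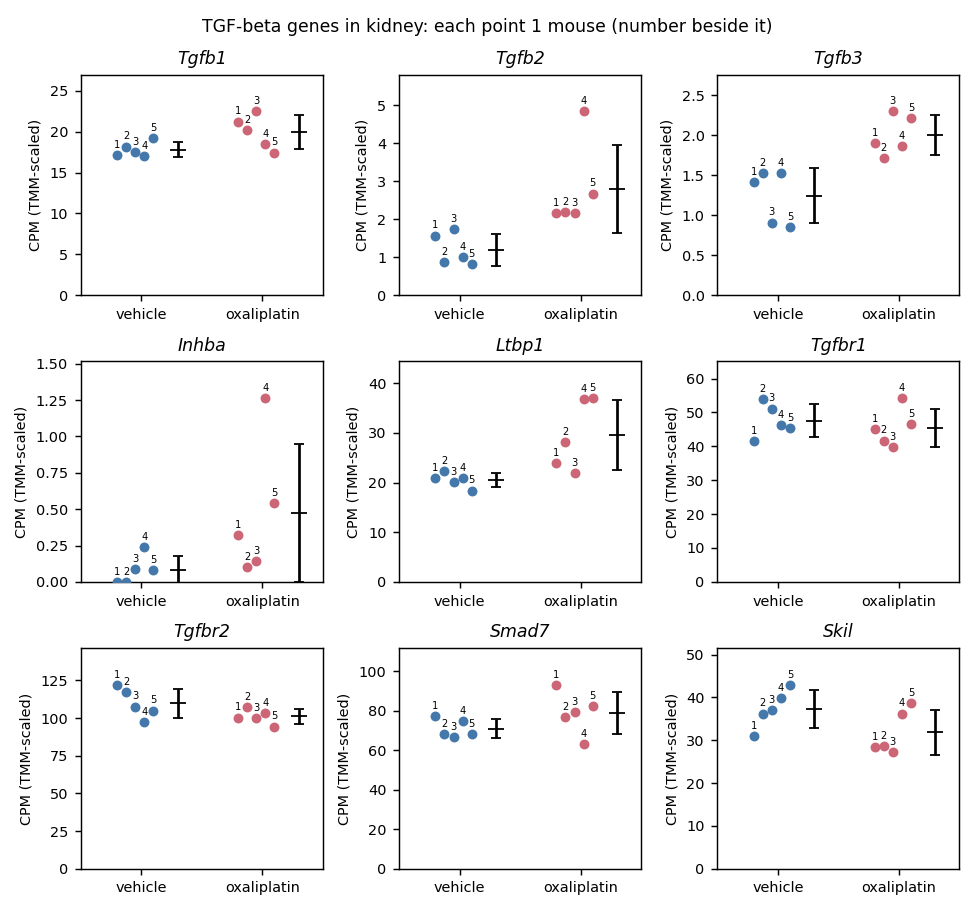
Expression of the 9 genes in kidney, drawn as for bone marrow: TMM-scaled CPM on a linear axis from 0, 1 numbered point per mouse, and the mean ± SD of 5 mice in black (for Inhba the vehicle bar is cut at 0). Tgfb2 and Tgfb3 do not overlap between the groups, and oxaliplatin-treated mice 4 and 5 carry the high values of Ltbp1 and Inhba.

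Among the receptors, Tgfbr2 (ENSMUSG00000032440, chr9:116084293-116175360, minus strand), the type II receptor that binds the ligand first, was 123, 134, 132, 155 and 126 CPM in vehicle marrow. With oxaliplatin it was 266, 228, 145, 219.5 and 194 CPM, and only mouse 3 fell within the vehicle range. The macrophage marker sum was 1751, 1613, 694, 1071 and 1253 CPM in these mice, so that mice 1 and 2 were highest and mouse 3 lowest for both, with 3 of 5 macrophage markers called higher and none at 0 in every library, and its part in the Tgfbr2 result was not tested. The log2 fold change of 0.66 (SE 0.14, adjusted p = 0.00278) was called, although it fell below 1.5-fold without oxaliplatin mouse 1 (0.56, adjusted p = 0.00649). In kidney it was 122, 117, 108, 97.4 and 105 CPM with vehicle and 100.4, 107, 100.1, 103 and 94.4 CPM with oxaliplatin, with overlap and a log2 fold change of -0.12 (SE 0.07, adjusted p = 0.208). Tgfbr1 (ENSMUSG00000007613, chr4:47353222-47414931, plus strand), the type I receptor kinase, was 58.8, 60.3, 65.5, 63.6 and 64.3 CPM in vehicle marrow and 60.0, 64.7, 52.1, 53.0 and 60.4 CPM with oxaliplatin. The groups overlapped, with mice 3 and 4 lowest (log2 fold change -0.11, SE 0.08, adjusted p = 0.363). In kidney Tgfbr1 ranged from 41.5 to 53.8 CPM with vehicle and from 39.7 to 54.2 CPM with oxaliplatin (log2 fold change -0.07, SE 0.09, adjusted p = 0.600).

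The balance of the receptor pair in marrow, as Tgfbr2 over Tgfbr1 per kb, was 1.67, 1.77, 1.60, 1.95 and 1.56 with vehicle and 3.54, 2.82, 2.23, 3.31 and 2.57 with oxaliplatin. No treated marrow overlapped a control in this ratio. The kidney ratios overlapped, from 1.68 to 2.35 with vehicle and from 1.52 to 2.06 with oxaliplatin. The ratio is given as a description of the values above.

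Smad7 (ENSMUSG00000025880, chr18:75367529-75395935, plus strand) and Skil (ENSMUSG00000027660, chr3:31095058-31122577, plus strand), the feedback inhibitors, did not pass the test. In marrow Smad7 was 27.6, 32.7, 29.0, 34.9 and 34.0 CPM with vehicle and 44.1, 34.6, 25.3, 30.7 and 36.2 CPM with oxaliplatin. The groups overlapped, with mouse 1 highest and mouse 3 lowest of all 10 (log2 fold change 0.11, SE 0.14, adjusted p = 0.576). In kidney Smad7 was 77.1, 68.2, 66.6, 74.6 and 68.0 CPM with vehicle and 92.9, 76.6, 79.2, 62.9 and 82.1 CPM with oxaliplatin, with overlap (log2 fold change 0.15, SE 0.09, adjusted p = 0.200). Skil in marrow was 35.5, 44.4, 42.0, 40.3 and 39.7 CPM with vehicle and 44.7, 39.6, 32.7, 34.0 and 43.9 CPM with oxaliplatin. The marrow values overlapped (log2 fold change -0.05, SE 0.11, adjusted p = 0.759). In kidney Skil was 31.0, 36.2, 37.1, 39.8 and 42.9 CPM with vehicle and 28.4, 28.6, 27.2, 36.2 and 38.7 CPM with oxaliplatin. Mice 1, 2 and 3 lay below all controls and the others did not (log2 fold change -0.23, SE 0.11, adjusted p = 0.118).

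**Figure D3:**
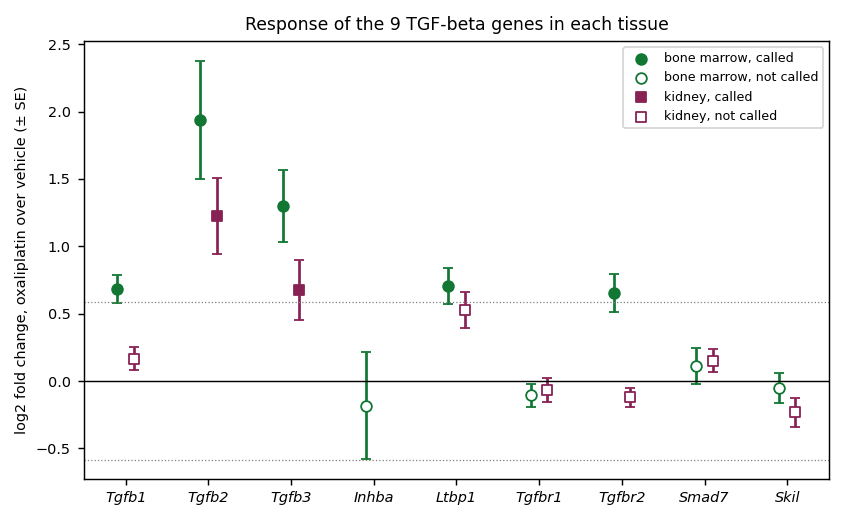
Log2 fold change (oxaliplatin over vehicle, error bars ± SE) of the 9 genes in bone marrow (circles) and kidney (squares), from edgeR. Filled symbols were called, open symbols were not, dotted lines mark a change of 1.5-fold either way, and Inhba in kidney was not tested. The 3 TGF-beta ligands, Ltbp1 and Tgfbr2 lie above the upper line in marrow, and Tgfb2 and Tgfb3 do in kidney.

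Whether a response differed between the tissues was tested as the tissue by treatment interaction over all 20 libraries and 24321 genes, of which 30.1% passed at an adjusted p under 0.05. Among the 9 genes 2 passed. The kidney response minus the marrow response was -0.58 on the log2 scale for Tgfb1 (SE 0.14, adjusted p = 0.00280) and -0.83 for Tgfbr2 (SE 0.15, adjusted p = 2.47e-04). For Tgfb2 it was -0.78 (SE 0.56, adjusted p = 0.311), for Tgfb3 -0.68 (SE 0.36, adjusted p = 0.159) and for Ltbp1 -0.24 (SE 0.20, adjusted p = 0.385), so their larger marrow changes were not distinguishable from the kidney ones here. Inhba had the largest estimate, 2.67 (SE 1.07, adjusted p = 0.0666), which rests on the few kidney reads given above. Tgfbr1, Smad7 and Skil had differences of -0.02, -0.01 and -0.23 (adjusted p = 0.948, 0.984 and 0.267).

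The rest of the pathway was read from lists of ligands, latency and activation factors, receptors, signal transducers, inhibitors and targets, which hold 62 genes with the 9 above, and 58 were tested in each tissue. In bone marrow 21 were called higher and 1 lower, with a median log2 fold change of 0.30 against -0.04 over all genes tested. In kidney 16 were called higher and 0 lower, with a median of 0.33 against 0.02. Over all genes tested 11.6% were called higher and 11.8% lower in marrow, and 7.68% and 3.81% in kidney, and the counts by role below stand beside these shares. These counts are descriptions of lists chosen with earlier results known. The plot of the pathway by role shows where they lay.

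**Figure D4:**
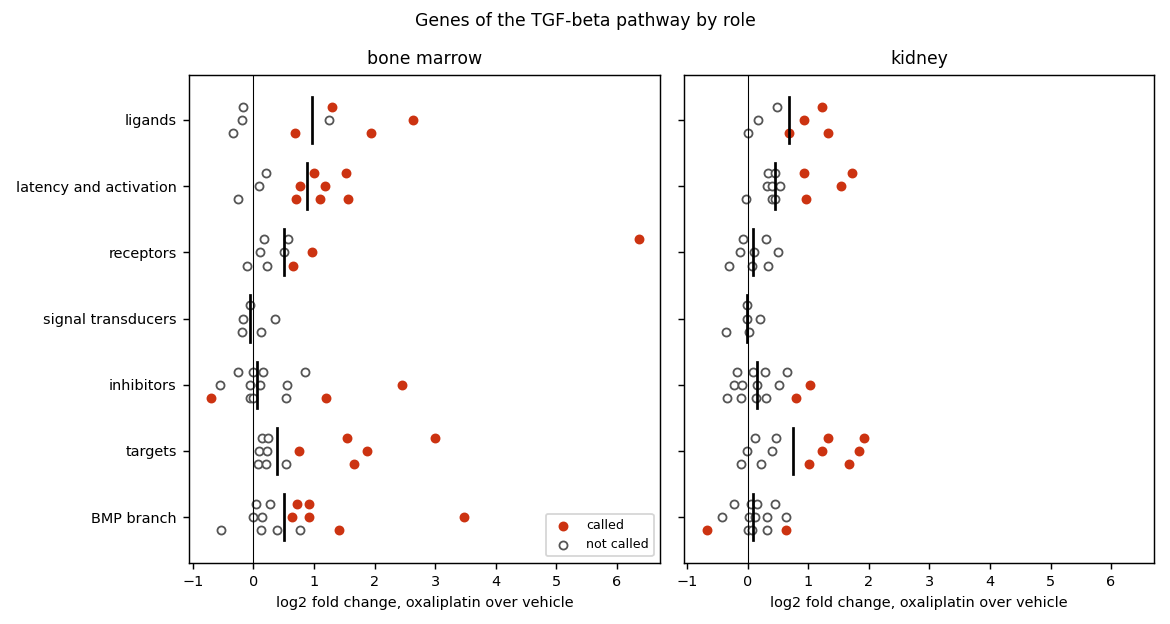
Log2 fold changes (oxaliplatin over vehicle) of tested pathway genes in bone marrow (left) and kidney (right), 1 row per role. Each point is 1 gene, red where called, and the black bar is the median of the row. Calls are absent from the signal transducers in both tissues, and marrow calls reach furthest for Acvr1c at 6.36.

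Of the ligands, 4 of 8 tested were called higher in marrow and 4 of 7 in kidney. Inhbb, which encodes the subunit of activin B, was the further one in marrow, at 3.01, 2.56, 2.80, 3.71 and 2.96 CPM with vehicle and 17.0, 10.8, 24.2, 28.2 and 13.3 CPM with oxaliplatin. Its groups stood far apart (log2 fold change 2.64, SE 0.25, adjusted p = 6.18e-06). In kidney Inhbb was between 2.16 and 3.51 CPM with vehicle and between 4.88 and 10.1 CPM with oxaliplatin (log2 fold change 1.32, SE 0.21, adjusted p = 1.92e-04). Its marrow response was the larger (kidney minus marrow -1.39, adjusted p = 0.00465). Adipocytes are known to express Inhbb, and the adipocyte marker sum of kidney also differed, from 20.1 to 41.7 CPM with vehicle and from 60.4 to 176 CPM with oxaliplatin, its part in the Inhbb result not tested.

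Latency and activation genes were called higher in 7 of 10 tested in marrow and in 4 of 12 in kidney, with 0 lower. Thbs1 (thrombospondin 1, a platelet and matrix protein that can activate latent TGF-beta) ranged from 648 to 1109 CPM in vehicle marrow and from 1955 to 2948 CPM with oxaliplatin (log2 fold change 1.53, SE 0.17, adjusted p = 1.85e-05). Lrrc32 (GARP, which holds latent TGF-beta on the surface of platelets and regulatory T cells) rose in marrow, from between 50.7 and 76.9 CPM to between 160 and 232 CPM (1.57, SE 0.13, adjusted p = 1.89e-06). The megakaryocyte and platelet markers were higher in treated marrow as well. Of the treated mice, mouse 3 was highest for these markers and for Lrrc32 but next to lowest for Thbs1 (2292 CPM). Mouse 2 was lowest for each. The part of these markers in either result was not tested. Lrrc32 was also called in kidney (0.93, SE 0.10, adjusted p = 5.74e-06), where the sum of those markers, mostly Itga2b, ranged from 14.0 to 18.3 CPM with vehicle and from 15.9 to 17.3 CPM with oxaliplatin. Of its 3 tested members only Pf4 was called in kidney (log2 fold change 1.70, SE 0.40, adjusted p = 0.00420). Pf4 was low, from 0.149 to 0.381 CPM with vehicle (4 to 10 counts) and from 0.450 to 1.29 CPM with oxaliplatin. Gp1ba (0.74, adjusted p = 0.0619) and Itga2b (-0.09, adjusted p = 0.559) were not called. The part of these markers in the kidney result was not tested. Thbs1 in kidney ranged from 70.3 to 75.1 CPM with vehicle and from 78.7 to 114 CPM with oxaliplatin, without overlap. It passed the adjusted p there (log2 fold change 0.46, SE 0.08, adjusted p = 6.12e-04) but stayed under 1.5-fold and was not called. In kidney the matrix genes Fbn1 (fibrillin 1, 13.4 to 15.0 CPM and 36.1 to 55.0 CPM) and Emilin1 (33.3 to 35.8 CPM and 60.9 to 75.0 CPM) were called, with log2 fold changes of 1.54 (SE 0.11, adjusted p = 3.67e-08) and 0.96 (SE 0.07, adjusted p = 6.23e-08). Both were also called without overlap in marrow (1.17, SE 0.21, adjusted p = 9.31e-04, and 0.77, SE 0.11, adjusted p = 9.87e-05), and the differences between the tissues did not pass the test (adjusted p = 0.382 and 0.488).

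Of 9 receptor genes 3 were called in marrow, all higher, and of 8 tested in kidney 0 were called, while 4 passed the adjusted p alone. Acvr1c, which encodes the type I receptor ALK7 and is known from adipose tissue, was 0, 0.175, 0.252, 0.427 and 0 CPM in vehicle marrow. With oxaliplatin it was 24.7, 6.93, 15.8, 23.2 and 2.86 CPM, lowest in the mice with the lowest adipocyte marker sums, mice 5 and 2. Mice 5 and 2 also had the lowest osteoblast marker sums. The vehicle libraries held at most 15 counts, so that the size of the change (log2 fold change 6.36, SE 0.83, adjusted p = 1.35e-04) is poorly set. The 5 signal transducers, Smad2, Smad3, Smad4, Zfyve9 and Trim33, were called in neither tissue, with a median log2 fold change of -0.06 in marrow. Of these Zfyve9 (SARA, which presents SMADs to the receptor), named after its values were seen, passed the adjusted p in both tissues in opposite directions and under 1.5-fold. It ranged from 9.15 to 10.4 CPM with vehicle and from 10.7 to 15.7 CPM with oxaliplatin in marrow (log2 fold change 0.35, SE 0.13, adjusted p = 0.0492), and from 54.1 to 58.2 CPM and from 39.6 to 47.9 CPM in kidney (-0.36, SE 0.07, adjusted p = 7.01e-04).

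Of 14 inhibitors 2 were called higher and 1 lower in marrow, and 2 higher and 0 lower in kidney, near the 23.3% and 11.5% called in either direction over all genes tested. Fst (follistatin, which binds and blocks activins) was 3.01, 3.43, 3.18, 6.27 and 3.96 CPM in vehicle marrow and 29.1, 24.4, 16.8, 19.7 and 18.9 CPM with oxaliplatin. The groups did not overlap (log2 fold change 2.45, SE 0.22, adjusted p = 3.89e-06), and in kidney, where Fst was also called (0.81, SE 0.16, adjusted p = 0.00119), the change was smaller by 1.70 (adjusted p = 5.92e-05). Fstl3, a follistatin relative, went in opposite directions. In marrow it was 3.42, 2.94, 1.83, 2.91 and 2.02 CPM with vehicle and 1.70, 1.60, 1.12, 1.67 and 1.97 CPM with oxaliplatin, with vehicle mouse 3 inside the treated range (-0.70, SE 0.24, adjusted p = 0.0385), and this call was lost without vehicle mouse 1, 2 or 4 or oxaliplatin mouse 1, 2, 3 or 4 (adjusted p from 0.0603 to 0.107), with scaling by library size alone (adjusted p = 0.0900) and with no filter beyond 1 count (adjusted p = 0.0737). In kidney it was 4.59, 3.28, 3.97, 3.99 and 4.58 CPM with vehicle and 9.76, 8.55, 7.87, 4.91 and 10.7 CPM with oxaliplatin, without overlap (1.04, SE 0.18, adjusted p = 4.18e-04), and the difference of 1.69 between the tissues passed the test (adjusted p = 1.72e-04).

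Among 12 targets 5 were called higher in marrow and 6 in kidney, and 0 were lower. Ccn2 (connective tissue growth factor) and Cdkn2b (the cell cycle inhibitor p15) were called in marrow only by these thresholds, and for both the difference between the tissues was tested and passed. Ccn2 went from between 4.36 and 8.95 CPM to between 13.4 and 30.6 CPM in marrow (1.66, SE 0.24, adjusted p = 1.33e-04) and ranged from 47.5 to 59.1 CPM and from 46.7 to 67.7 CPM in kidney (difference -1.72, adjusted p = 1.80e-05). Cdkn2b went from between 0.126 and 0.407 CPM, at most 14 counts, to between 1.69 and 3.43 CPM in marrow (2.99, SE 0.32, adjusted p = 1.57e-05) and ranged from 2.24 to 3.95 CPM and from 2.39 to 3.45 CPM in kidney (difference -3.15, adjusted p = 1.06e-06).

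Fibrillar collagen genes were among the targets called in kidney. Col1a1 was 20.2, 21.7, 26.1, 18.9 and 23.3 CPM in vehicle kidney and 62.5, 83.0, 69.2, 89.9 and 87.1 CPM with oxaliplatin (log2 fold change 1.83, SE 0.11, adjusted p = 2.17e-08). The treated kidneys stood apart from every control, while the marrow groups, from 218 to 559 CPM and from 160 to 607 CPM, covered each other, and the difference between the tissues was 1.68 (adjusted p = 0.00803). Col1a2 (1.33, SE 0.09, adjusted p = 2.48e-08) and Col3a1 (1.23, SE 0.12, adjusted p = 1.33e-05) were called in kidney without overlap, and both also in marrow, Col3a1 without overlap (1.55, SE 0.33, adjusted p = 0.00366) and Col1a2 with overlap (0.76, SE 0.23, adjusted p = 0.0212). The marrow call of Col1a2 was lost without vehicle mouse 2 or 3 or oxaliplatin mouse 3 or 4 (adjusted p from 0.0555 to 0.0589) and with no filter beyond 1 count (adjusted p = 0.0590). Postn (periostin), from 0.259 to 1.498 CPM with vehicle and from 1.94 to 5.33 CPM with oxaliplatin, and Acta2 (smooth muscle actin, a marker of contractile cells), from 13.4 to 22.2 CPM and from 25.0 to 46.4 CPM, were called in kidney as well (1.93 and 1.02, adjusted p = 0.00198 and 0.00182). Markers of the cells that make matrix moved with them: the summed CPM of 5 fibroblast genes in kidney went from between 78.4 and 92.2 to between 134 and 168, with 3 of 4 tested called higher, and that of 4 smooth muscle genes from between 41.2 and 47.8 to between 93.9 and 265, with 2 of 4 called higher. The 5 tubular injury genes summed to between 279 and 326 CPM with vehicle and between 508 and 644 CPM with oxaliplatin, with 2 of 4 tested called higher. No gene of these 3 lists was at 0 in every kidney, and their part in the kidney changes was not tested. Other kidney sums also rose without overlap, among them podocyte (230.9 to 238.5 and 334 to 411 CPM) and endothelial genes (221.5 to 238 and 266 to 377 CPM). The macrophage, T cell and B cell sums of kidney were lower without overlap. In marrow the fibroblast (79.3 to 111.6 and 114.4 to 149 CPM) and smooth muscle sums (16.2 to 32.9 and 53.4 to 68.3 CPM) rose too, their part not tested.

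The genes whose pattern was most like each of the 9 were taken by Pearson's r of log2 CPM over the 20 libraries, as a description: the libraries share tissue and treatment, so that a gene differing between the tissues to the same degree gives a high r. For Tgfb1 they were Muc13 (r = 0.999) and Ly6g6f (0.998), for Ltbp1 Ptgs1 (0.986) and Thbs1 (0.983), for Inhba Satb1 (0.995) and Ccdc125 (0.994), and for Smad7 Mllt6 (0.989). Likeness was lower for Tgfb3, with Clmp (0.954) and Gm44710 (0.952), for Tgfb2, with Scn7a (0.913) and Akr1c12 (0.887), and for Tgfbr2, with Scn3a (0.916) and Prrt4 (0.913). It was lowest for Skil, with Lonrf3 (0.780) and Atg4c (0.769), and for Tgfbr1, with Rybp-ps (0.687) and Gm20457 (0.647).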

How the data were processed

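The authors deposited 1 table of raw counts per gene for each tissue, 20 libraries in all, without normalization. Per the methods, STAR was used for alignment to an Ensembl mouse genome, and Partek Flow counted reads that had 1 unambiguous position, whereas the submitters' processing notes also name featureCounts and Salmon. The methods describe a SMARTer kit, and the sample labels describe removal of ribosomal RNA with random priming. Strand use is not given in the sources used here. Samples were grouped by the tissue and treatment in their labels.

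Each table had 55774 lines. Repeated lines (287) and 1 line with a blank value were left out, leaving 55486 genes. Positions and exon lengths came from GENCODE mouse release 21 (GRCm38), which holds 55227 of them. Low genes were removed by filterByExpr (minimum count 10), libraries were scaled with TMM factors, and edgeR 4.0.16 with limma 3.58.1 in R 4.3.3 gave robust quasi-likelihood tests, two-sided, with Benjamini-Hochberg adjustment over all genes tested. Adjusted p values are from this test. Depth was between 24393007 and 41140527 counts, at which 3 counts, the floor, make 0.0668 to 0.130 CPM. This floor covers counting error only. No libraries of a group agreed within sampling noise, as the lowest chi-square per degree of freedom between 2 of them was 6.83. The steps were also run on simulated data, in which only genes with higher counts were changed, all by more than the 1.5-fold threshold. Genes with low counts and changes near that threshold were not covered.

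Alternatives were DESeq2 1.42.0, its size factors, library size alone, hemoglobin genes left out, other filters, a fold change beyond 2, the Y-linked genes as a covariate, the replicate number as a block, and each library left out. Named in the text are the 9 genes; in each tissue up to 10 further called pathway genes without overlap between groups, by size of change; the 2 genes most like each of the 9; and marker lists. Some genes that this rule names are not reported here. Lists and members were chosen with earlier results of these data known. Python 3.11.15 and matplotlib 3.10.9 drew the figures. Protein sequences were not used here.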

Additional observations from a re-analysis of the deposited data

Results flagged for a closer look

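In 2 of 36 groups of 5 values of the 9 genes, 1 mouse stood far from the other mice of its group: Tgfb1 in the marrow of oxaliplatin-treated mouse 3 (854 CPM) and Tgfb2 in the kidney of oxaliplatin-treated mouse 4 (4.84 CPM). Chance marks about 1 in 20 such groups. The Tgfb1 call in marrow was kept without any 1 library (log2 fold change from 0.60 to 0.75), and so was the Tgfb2 call in kidney (0.95 to 1.39).

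The response differed between kidney and marrow by the interaction test for Tgfb1 (-0.58, kidney minus marrow on the log2 scale) and Tgfbr2 (-0.83). Among the other pathway genes named, the marrow response was the higher for Cdkn2b (-3.15), Nog (-3.09), Ccn2 (-1.72), Fst (-1.70), Bmp4 (-1.70), Inhbb (-1.39), Thbs1 (-1.13), Id1 (-0.96), Zfyve9 (-0.76) and Lrrc32 (-0.70). The kidney response was the higher for Fstl3 (1.69), Col1a1 (1.68) and Bmp6 (1.11). Over all 24321 genes tested 30.1% passed the same test.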

How the results depend on the processing

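Of the called values of the 9 genes, 70 of 77 kept direction and call under the other settings and 105 of 110 when each library was left out. A fold change beyond 2 in place of 1.5 lowered the calls to 3231 in bone marrow and 941 in kidney, and the called pathway genes in marrow to 14, and ended the calls of Tgfb1 (log2 fold change 0.68), Ltbp1 (0.71) and Tgfbr2 (0.66) in marrow and of Tgfb3 in kidney (0.68), by its construction. The kidney call of Tgfb3 was also lost with no filter beyond 1 count (0.68, adjusted p = 0.0578) and with a covariate of Y-linked genes (0.61, adjusted p = 0.0660), the cause of which was not tested. Leaving out each library in turn moved it from 0.57 to 0.76, with the call lost for 4 of 10 libraries, and moved Tgfbr2 in marrow from 0.56 to 0.76, with the call lost for 1.

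Among the 9 genes, directions turned only for values that did not pass the test. Scaling by library size alone gave 0.039 for Tgfbr1 and 0.094 for Skil in marrow, 0.067 for Tgfbr1 and 0.012 for Tgfbr2 in kidney, and 0.027 and 0.025 for the tissue differences of Tgfbr1 and Smad7, and requiring at least 10 counts in every library gave 0.088 for both differences. With each library left out, Inhba in marrow went from -0.40 to 0.046, Skil in marrow from -0.10 to 0.0057, and the tissue differences of Tgfbr1 from -0.085 to 0.029 and of Smad7 from -0.081 to 0.063. The tissue difference of Inhba passed with DESeq2 (2.67, adjusted p = 0.0237) and without 4 of the 20 libraries, 1 at a time.

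The replicate numbers were not taken as pairs. Deviations of vehicle-treated and oxaliplatin-treated mice of 1 number correlated from -0.10 to 0.30 in marrow and from -0.17 to 0.08 in kidney, and 1 of 5 and 2 of 5 pairs correlated best with their own number. Between marrow and kidney the correlations of 1 number ranged from -0.11 to 0.05 with vehicle and from -0.08 to 0.21 with oxaliplatin, where mice 3 (0.18) and 5 (0.21) correlated best with their own number, and whether a number marks 1 mouse in both tissues is not given. With the number as a replicate block, calls went to 4968 in marrow and 2017 in kidney, and Tgfb3 in kidney gave 0.70 (adjusted p = 0.0696) and Fstl3 in marrow gave -0.69 (adjusted p = 0.0617), both no longer called. Depth limits Tgfb2 and Tgfb3, which had 17 to 41 counts in vehicle marrow and 21 to 40 in vehicle kidney, respectively, and Inhba in kidney.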

Other observations

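The bone morphogenetic protein (BMP) branch, a sister pathway that signals through SMAD1, SMAD5 and SMAD9, was counted from a list of 15 genes of which 14 were tested in each tissue. In bone marrow 6 were called higher and 0 lower, and in kidney 1 was called higher and 1 lower, beside 11.6% higher and 11.8% lower over all genes tested in marrow and 7.68% and 3.81% in kidney. Nog (noggin, a secreted BMP antagonist) was 0.285, 0.233, 0.189, 0.114 and 0.163 CPM in vehicle marrow, from 4 to 9 counts, and 2.33, 1.00, 2.70, 4.18 and 0.782 CPM with oxaliplatin. Its groups did not overlap (log2 fold change 3.47, SE 0.49, adjusted p = 1.36e-04), and mice 5 and 2 were the lowest treated mice, as they were for Tgfb2 and for the adipocyte and osteoblast markers.

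Of the other BMP genes, 3 are named after their values were seen. Bmp4, a ligand, ranged from 4.73 to 8.13 CPM in vehicle marrow and from 11.2 to 25.6 CPM with oxaliplatin (1.42, SE 0.21, adjusted p = 2.20e-04). Id1, a classical BMP target, ranged from 13.7 to 18.8 CPM and from 24.3 to 33.6 CPM (0.91, SE 0.13, adjusted p = 1.25e-04). Bmp6, a ligand known to drive hepcidin, was lower in treated marrow without overlap, from 25.4 to 36.9 CPM and from 17.9 to 23.6 CPM (-0.54, SE 0.12, adjusted p = 0.00352), under 1.5-fold. In kidney Bmp6 was higher, from 81.8 to 96.1 CPM with vehicle and from 109.5 to 168 CPM with oxaliplatin (0.63, SE 0.10, adjusted p = 1.95e-04), a change that fell under 1.5-fold without oxaliplatin mouse 1 (0.55).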
